A study of Mus musculus with 6 samples.

Results

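Hprt, Pgk1 and G6pdx are 3 of the 372 X-linked genes measured here, and they were chosen by name from both deposited tables. No value enters that rule, but earlier results of these data were known when the genes were picked. Hprt encodes hypoxanthine phosphoribosyltransferase, which salvages purine bases with phosphoribosyl pyrophosphate. Pgk1 encodes phosphoglycerate kinase, which makes ATP in glycolysis. G6pdx encodes glucose-6-phosphate dehydrogenase, the entry enzyme of the pentose phosphate pathway and a source of NADPH. All 3 are widely expressed enzymes whose protein variants and deficiencies served as early markers of X inactivation, the silencing of 1 X chromosome in each female cell. Xist, a noncoding RNA made from the chromosome that is silenced, starts that process in differentiating embryonic stem cells.

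RNA was sequenced from the female mouse embryonic stem cell line 16.7 TST, with the genotype label WT in all 3 groups and 2 libraries per group, 6 in all. The day 0 group was undifferentiated and had been kept with LIF on feeder layers of irradiated mouse embryonic fibroblasts. The day 4 and day 7 groups had been taken off the feeders, differentiated as embryoid bodies without LIF, and plated on gelatin from day 4. All groups are 1 cell line, the labels do not explain TST, and they do not say whether the 2 libraries of a day came from separate cultures, so each p-value reflects no more than the spread of these libraries, which may be technical. The first table gave, per gene, the reads of either allele, cas or mus, and its headers call cas the active and mus the inactive X. The second gave TPM, a transcript abundance per length on a common scale per library. Allele-specific reads summed over the 372 genes ranged from 69742 to 160218 per library. No sequencing batch is named in the labels or tables. Of the autosomal markers of stem cells, such as Pou5f1 and Nanog, none is among these genes. The 5 X-linked stem cell markers (Nr0b1, Tfe3, Dusp9, Eras and Zfp185) had a summed level of 1199 and 1234 TPM at day 0 and between 438 and 454 TPM in the 4 later libraries. By day 7, 4 of the 5 were called lower than at day 0 (54% of all genes), while Zfp185 was called higher (18.4 ± 1.70 to 29.4 ± 0.781 TPM, limma), and Dusp9 was higher at day 7 than at day 4 (278 ± 3.99 and 145 ± 7.25 TPM). Xist was 98.9% ± 0.245 mus at day 0. Its level was 11.3 ± 0.573 TPM at day 0, 103 ± 7.45 TPM at day 4 and 58.6 ± 1.06 TPM at day 7 (SD, n = 2). Values below are given per library or as a day's mean ± SD (n = 2). The TPM of the day 7 pair are tied to those of the other days, as described below. Their SDs, here and below, may thus be too small.

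In the GRCm38 annotation Hprt lies on the plus strand at chrX:52988137-53021659, G6pdx on the minus strand at chrX:74409483-74429194, and Pgk1 on the plus strand at chrX:106187100-106203699. Their starts are 50.5, 29.1 and 2.7 Mb from that of Xist. Hprt and Pgk1 overlap no other annotated gene, whereas G6pdx lies inside Ikbkg, a gene of the opposite strand that encodes a subunit of the NF-kappaB kinase complex, and shares 418 of its 3080 exonic bases with it (13.6%). The libraries were directional, but whether the counting used strand is not given in the sources used here, so reads of G6pdx and Ikbkg may be mixed over those bases. Near copies elsewhere in the genome differed among the members. The longest coding transcript of Pgk1 matched the processed pseudogenes Pgk1-rs7 on chromosome 12 and Gm5537 on chromosome 3 with 100% identity over 68.8% and 68.6% of its length. That of G6pdx matched the autosomal coding gene G6pd2 on chromosome 5 with 93.2% identity over 87.5%. The best match of Hprt, a pseudogene on chromosome 17, reached 79.3% identity over 21.3%. How reads with several matching places were counted is not given, so values of Pgk1, and less so of G6pdx, are uncertain to that extent. The effect was not tested.

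The stretches before the starts of Hprt and Pgk1 are shown because all 3 genes are read from promoters of the housekeeping kind, rich in CpG and without a TATA box. Each line gives the 250 bases before the RefSeq start (GRCm38.p6, plus strand, chrX:52987828-52988077 for Hprt and chrX:106186850-106187099 for Pgk1), with the GC box GGGCGG, or its reverse complement, in capitals.
Hprt: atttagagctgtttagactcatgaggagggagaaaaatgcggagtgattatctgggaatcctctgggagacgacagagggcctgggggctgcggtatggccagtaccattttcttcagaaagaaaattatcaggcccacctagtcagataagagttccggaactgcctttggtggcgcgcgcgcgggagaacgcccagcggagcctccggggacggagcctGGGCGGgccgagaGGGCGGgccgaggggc
Pgk1: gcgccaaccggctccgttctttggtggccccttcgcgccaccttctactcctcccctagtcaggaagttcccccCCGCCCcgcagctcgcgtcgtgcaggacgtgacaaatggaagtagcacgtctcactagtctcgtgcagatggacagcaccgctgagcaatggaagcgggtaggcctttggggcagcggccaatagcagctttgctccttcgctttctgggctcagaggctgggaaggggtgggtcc
Hprt holds 2 GC boxes and Pgk1 1. The window of G6pdx lies within an annotated exon and is not printed, but it also holds 1. A GC box was present in 58.1% of the 320 promoters found for the 372 genes and in 32.9% of 27025 promoters of the genome, both strands searched. The 3 windows had 17, 17 and 15 CpG dinucleotides for Hprt, Pgk1 and G6pdx, against a median of 12.0 in the X-linked set and 6.0 in the genome. None held TATAAA on either strand, which 7.81% of the X-linked set and 13% of all promoters did, so most promoters lack it too. CCAAT was found on either strand in Pgk1 alone of the 3, in 44.1% of the X-linked set and in 34.5% of all promoters. A match is a run of letters and not evidence of binding.

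At day 0 the 3 enzymes already differed in allele use. Hprt was read more from mus, Pgk1 mostly from cas, and G6pdx did not pass the test against an equal share. Hprt had 200.5 mus of 325 reads (61.7%, Wilson 95% interval 56.3% to 66.9%) in replicate 1 and 230.5 of 380 (60.7%, 55.5% to 65.3%) in replicate 2. Pgk1 had 13 mus of 85 reads (15.3%, 9.16% to 24.4%) and 25.5 of 148 (17.2%, 12.3% to 24.5%). G6pdx had 153 of 284.5 (53.8%, 47.9% to 59.4%) and 217.5 of 467.5 (46.5%, 42.1% to 51.1%). Both Hprt libraries thus lay above 50%, both Pgk1 libraries far below it, and the G6pdx libraries on either side. These intervals cover counting error only, since reads without molecular identifiers are not independent molecules. Tested by edgeR's quasi-likelihood method (Benjamini-Hochberg over all 372 genes), the log2 odds of mus to cas reads were 0.65 ± 0.12 (SE) for Hprt (adjusted p = 4.85e-07) and -2.31 ± 0.24 for Pgk1 (adjusted p = 3.86e-19). They were -0.04 ± 0.11 for G6pdx (adjusted p = 0.842 in the same edgeR test). Of all genes 9.68% were called higher in mus and 19.4% lower, and Pgk1 had the 5th lowest of the 372 estimates. The calls of Hprt and Pgk1 were lost in limma on the empirical logit (adjusted p = 0.136 and 0.0685), which called 10 genes in all against 108.

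Split by allele, the cas alleles of the 3 genes stood at similar levels at day 0, and the mus alleles did not. An allele's level is here the TPM of the gene times that allele's share of the allele-specific reads. The cas level was 52.9 ± 1.53 TPM for Hprt, 48.0 ± 1.58 for Pgk1 and 57.1 ± 12.2 for G6pdx. The mus level was 83.3 ± 0.155, 9.34 ± 1.24 and 56.8 ± 0.600 TPM in the same order. These differences between genes were not tested. Beside the higher mus share of Hprt stand the 7 measured X-linked fibroblast markers (Bgn, Timp1, Col4a5, Col4a6, Fhl1, Flna and Msn), of which 5 of 7 were called higher in mus at day 0 and 0 lower (9.68% and 19.4% of all genes). Their median share was 72.4% and 72.2% mus. The matrix genes Bgn and Col4a5 were at 99.9% ± 0.159 and 98.3% ± 2.38. The cytoskeletal gene Flna, which held most of the reads, was at 54.0% ± 0.470. Fhl1 (48.6% ± 4.77) and Col4a6 (79.8% ± 6.8 of a mean of 7.25 reads) were not called. Over the 7 markers the summed reads were 56.9% and 57.1% mus. The summed level was 909 and 883 TPM at day 0, 634 and 657 TPM at day 4, and 941 and 932 TPM at day 7. By day 4 limma called Bgn, Timp1 and Msn lower and Col4a6 and Fhl1 higher (40.6% and 41.4% of all genes). Bgn fell from 90.8 ± 10 to 1.89 ± 0.460 TPM and Timp1 from 185 ± 3.62 to 44.7 ± 3.69 TPM. Fhl1 rose from 57.4 ± 2.46 to 77 ± 1.05 TPM and Col4a6 from 0.453 ± 0.186 to 8.24 ± 0.809 TPM. Flna, at 367 ± 24.3 and 348 ± 8.43 TPM, was not called. From day 4 to day 7 all 7 markers were called higher (25.5% of all genes, limma). Their part in the share of Hprt was not tested.

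**Figure D1:**
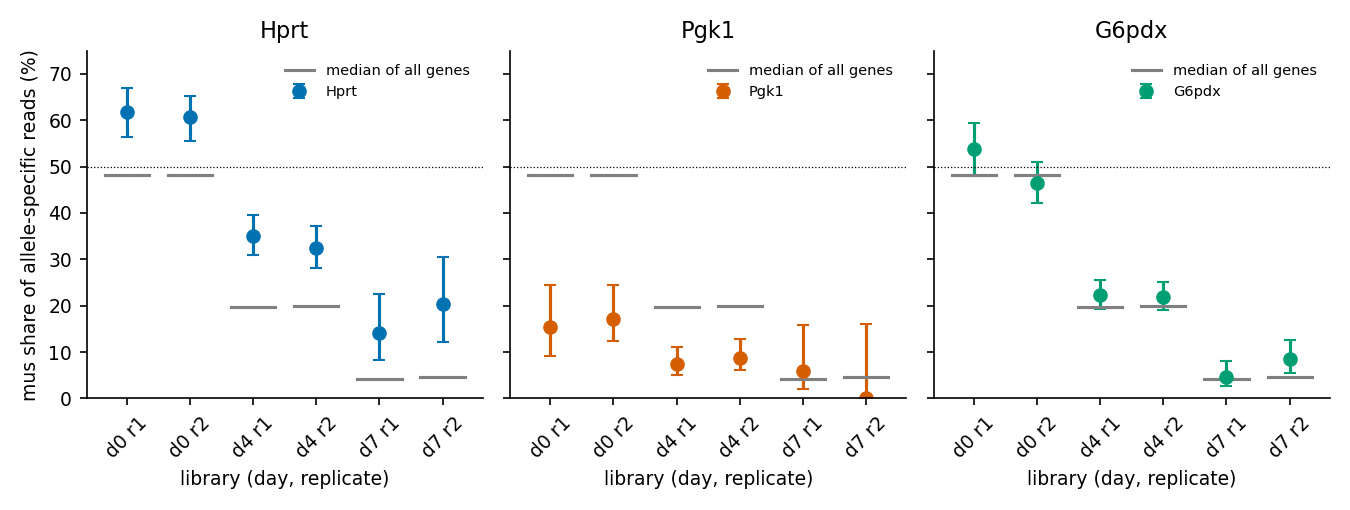
Mus share of allele-specific reads (percent) of each gene in each library, with Wilson 95% intervals as bars, the median of all 372 genes as grey lines and an equal share as a dotted line. Hprt lies above the grey line in all 6 libraries, at 61.7% and 60.7% on day 0, while Pgk1 starts at 15.3% and 17.2% and G6pdx lies on either side of the grey lines on day 0.

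All 3 enzymes had a lower mus share by day 4 than at day 0, where 87.9% of the 372 genes were called lower and 0.806% higher. Hprt went to 163.5 mus of 466 reads (35.1%, 31.0% to 39.6%) and 129.5 of 398.5 (32.5%, 28.2% to 37.3%). Pgk1 went to 23.5 of 318.5 reads (7.38%, 5.11% to 11%) and 23.5 of 270 (8.70%, 6.05% to 12.9%). G6pdx went to 149 of 669.5 reads (22.3%, 19.3% to 25.6%) and 159 of 724.5 (21.9%, 19.1% to 25.1%). In each of the 3 genes both day 4 shares lay below both day 0 shares, although the counting intervals of Pgk1 overlapped between the days. The log2 odds changed by -1.61 ± 0.16 for Hprt, -1.18 ± 0.37 for Pgk1 and -1.78 ± 0.14 for G6pdx. The adjusted p-values of edgeR's quasi-likelihood test were 3.39e-22, 0.00209 and 1.1e-31. The call of Pgk1 was lost in DESeq2 (0.0833), in limma on the empirical logit (0.122) and without day 0 replicate 2 (0.103). The median gene changed by -1.81. The median gene of each library was also used as a reference, taken from the library's log2 odds and not from the fitted changes. Against it the changes of Hprt, Pgk1 and G6pdx were 0.27, 0.70 and 0.10. None of these passed the test, while 81 genes were higher and 68 lower.

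At day 7 the log2 odds of mus to cas reads had fallen less for Hprt than for the median gene, and Pgk1 was too thinly read to place. Hprt had 13 mus of 92.5 reads (14.1%, 8.35% to 22.5%) and 14.5 of 71.5 (20.3%, 12.1% to 30.4%). G6pdx had 11.5 of 254 reads (4.53%, 2.72% to 8.07%) and 21 mus against 228 cas reads (8.43%, 5.58% to 12.5%). Pgk1 had 3 of 51 reads (5.88%, 2.02% to 15.9%) and 0 of 19.5, so that a share of up to 15.4% is allowed. The intervals of Hprt and G6pdx did not overlap in replicate 1 and met in replicate 2, and those of Pgk1 overlapped both other genes. The median gene stood at 4.35% ± 0.374, from 48.1% ± 0.0723 at day 0. Hprt stood at 17.2% ± 4.4, from 61.2% ± 0.731, a similar fall in percentage points. Against day 0 the log2 odds changed by -2.99 ± 0.30 for Hprt, -2.13 ± 0.78 for Pgk1 and -3.79 ± 0.23 for G6pdx, with adjusted p = 1.55e-22, 0.00786 and 2.23e-54 in edgeR's quasi-likelihood test. Of all genes 89.8% were called lower and 0.538% higher, and the median gene changed by -4.22. The Pgk1 call was lost without day 0 replicate 2 (adjusted p = 0.0562), and its estimate was -5.87 without day 7 replicate 1, which left no mus read at day 7. Against the median gene of each library, a reference other than the fitted change of -4.22, the change of Hprt was 0.94 higher. It passed (adjusted p = 0.037, edgeR), and those of Pgk1 (1.76) and G6pdx (0.13) did not, with 63 genes higher and 41 lower in all.

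Between day 4 and day 7 the share fell again at Hprt and G6pdx. The log2 odds fell by 1.38 ± 0.31 for Hprt (adjusted p = 2.49e-05) and by 2.01 ± 0.24 for G6pdx (adjusted p = 4.07e-15) in the same edgeR test, in which 68.3% of genes were called lower and 1.08% higher. The change of Pgk1 was -0.95 ± 0.82 (adjusted p = 0.301), which did not pass at this depth. Relative to the median gene none of the 3 passed, with changes of 0.66, 1.06 and 0.03 for Hprt, Pgk1 and G6pdx, while 43 genes were higher and 20 lower.

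**Figure D2:**
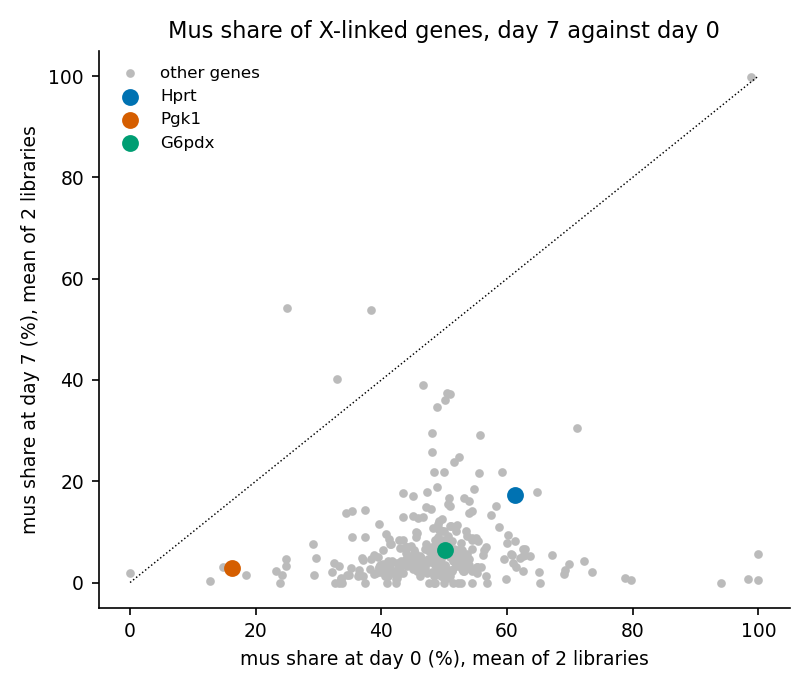
Mean mus share at day 7 against that at day 0 (percent, 2 libraries each) for the 317 genes with a mean of at least 10 reads at day 7, with an equal share on both days as the dotted line. G6pdx (50.2%, 6.48%) lies inside the main cloud, Pgk1 (16.3%, 2.94%) at its left edge and Hprt (61.2%, 17.2%) above and to the right of most genes.

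Total expression separated the 3 genes in another way. Hprt and Pgk1 fell by day 7, and G6pdx ended near its starting level. Hprt had 135 and 137 TPM at day 0, 144 and 142 at day 4, and 39.7 and 39.9 at day 7. Pgk1 had 55.3 and 59.3 TPM, then 83.1 and 83.0, then 22.5 in both libraries. G6pdx had 105 and 123 TPM, then 136 and 147, then 118 and 116. The close agreement of the day 7 pairs is no measure of replicate spread, because their TPM are tied to the other days. The day 7 libraries of Hprt and Pgk1 lay below all others, and those of G6pdx lay within the range of day 0. At day 0 the order was Hprt, G6pdx and Pgk1, with no overlap. At day 4 Hprt and G6pdx overlapped above Pgk1, and at day 7 the order was G6pdx, Hprt and Pgk1. In bulk RNA fewer cells of a type and less RNA per cell cannot be told apart.

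By day 4 Pgk1 rose by 0.53 ± 0.06 on the log2(TPM + 1) scale (adjusted p = 9.96e-05, limma's trend method with Benjamini-Hochberg adjustment) and G6pdx by 0.31 ± 0.08 (adjusted p = 0.00994). The change of Hprt was 0.07 ± 0.05 (adjusted p = 0.208 in the same limma fit). Of all genes 41.4% were called higher and 40.6% lower. On the median-gene reference Pgk1 was 0.33 higher and called, G6pdx 0.11 higher and not called (adjusted p = 0.276), and Hprt 0.13 lower and called (value -0.13, adjusted p = 0.0366), with 128 genes higher and 185 lower in all. In DESeq2 on the summed allele-specific reads neither Pgk1 nor G6pdx passed (adjusted p = 0.064 and 0.192). The G6pdx call was also lost without day 4 replicate 2 (limma, adjusted p = 0.0815), and Hprt was called without day 0 replicate 2 (adjusted p = 0.0312).

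By day 7 Hprt was 3.36-fold and Pgk1 2.48-fold lower than at day 0, changes of -1.75 ± 0.05 and -1.31 ± 0.06 on the log2(TPM + 1) scale (adjusted p = 3.02e-08 and 3.26e-07, limma). G6pdx changed by 0.04 ± 0.08 (adjusted p = 0.625, limma). Of all genes 54% were called lower and 30.9% higher, and the median gene changed by -0.37. Relative to the median gene of each library Hprt and Pgk1 remained lower, by values of -1.44 and -1.0, and G6pdx was 0.36 higher (adjusted p = 0.0086), with 164 genes higher and 173 lower. The summed allele-specific reads, tested with edgeR and TMM scaling over X-linked genes only, gave smaller falls of Hprt (-1.16) and Pgk1 (-0.76, adjusted p = 0.0277) and called G6pdx higher (0.38, adjusted p = 0.0319). In DESeq2 on those reads Pgk1 did not pass (-0.75, adjusted p = 0.0679).

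From day 4 to day 7 Hprt was 3.53-fold and Pgk1 3.58-fold lower (adjusted p = 4.5e-08 and 8.26e-08, limma), beside 60.5% of genes called lower, 25.5% called higher and a median change of -0.50. G6pdx fell by 0.27 ± 0.08 (adjusted p = 0.0178, limma), a call that turned to 0.24 higher relative to the median gene and to 0.03 in edgeR on summed reads (not called), and was lost without day 4 replicate 2 (adjusted p = 0.128). Against the median gene 163 genes were higher and 157 lower. A relation inside the TPM limits these tests. The log2 difference between the day 7 libraries was, for every gene, a fixed combination of the differences at day 0 and day 4. The fit had an R squared of 1 and a residual SD below 1e-6. The SD of the difference over genes was 0.0415 at day 7 against 0.271 at day 0. The adjusted p-values from TPM, and the SDs of TPM at day 7, may thus be smaller than they should be.

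**Figure D3:**
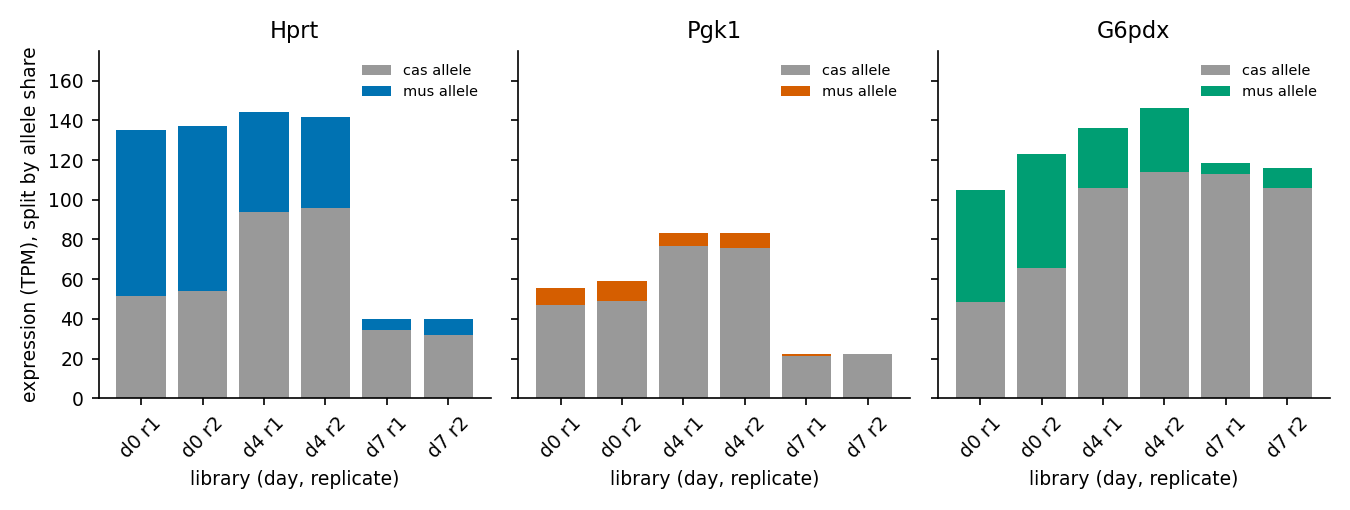
Expression in TPM per library, split into the cas level (grey) and the mus level (colour) by the share of allele-specific reads. The mus part shrinks in all 3 genes, and the grey part of G6pdx at day 7 (113 and 106 TPM) stays near its day 4 height, whereas those of Hprt (34.2 and 31.8) and Pgk1 (21.2 and 22.5) drop.

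Splitting the totals by allele showed which allele each change came with. By day 4 the cas level had risen at all 3 genes, to 94.7 ± 1.43 TPM for Hprt, 76.3 ± 0.838 for Pgk1 and 110 ± 6.34 for G6pdx (log2 changes 0.83 ± 0.06, 0.66 ± 0.06 and 0.95 ± 0.15, each called by limma). Of the 357 genes with reads in every library 67.2% were called higher from cas and 11.8% lower, and the median change was 0.61. None of the 3 was called relative to the median gene, and the value of Pgk1 was -0.06. The mus level had fallen to 48.4 ± 3.23 TPM for Hprt and 31.2 ± 1.40 for G6pdx (adjusted p = 0.00997 and 0.0241, limma), while Pgk1 was at 6.68 ± 0.773 (adjusted p = 0.347, limma). From mus 73.1% of genes were called lower and 2.52% higher. Both mus calls were lost without any 1 of the 4 libraries of these days, with adjusted p between 0.0539 and 0.134, and relative to the median gene, where the values were 0.30 and 0.23.

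By day 7 the cas level of G6pdx was still higher than at day 0, at 110 ± 4.65 TPM (0.94 ± 0.15, adjusted p = 0.00146, limma). The cas levels of Hprt and Pgk1 had fallen below day 0, to 33.0 ± 1.68 and 21.8 ± 0.933 TPM (-0.67 ± 0.06 and -1.10 ± 0.06, adjusted p = 0.000178 and 2.31e-05, limma), beside 58% of genes called higher and 28.9% lower. The total of G6pdx at day 7 thus held a higher cas and a lower mus level than at day 0. The mus levels were 6.84 ± 1.77 TPM for Hprt, 7.57 ± 3.14 for G6pdx and 0.661 ± 0.935 for Pgk1, each called lower than at day 0 (limma), as were 93.6% of genes, with 1.96% higher. Relative to the median gene these 3 mus changes were not called, with values of -0.43, 0.21 and 0.26. At Hprt, where the log2 odds fell less than at the median gene, the cas level fell and the mus level was not relatively higher.

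**Figure D4:**
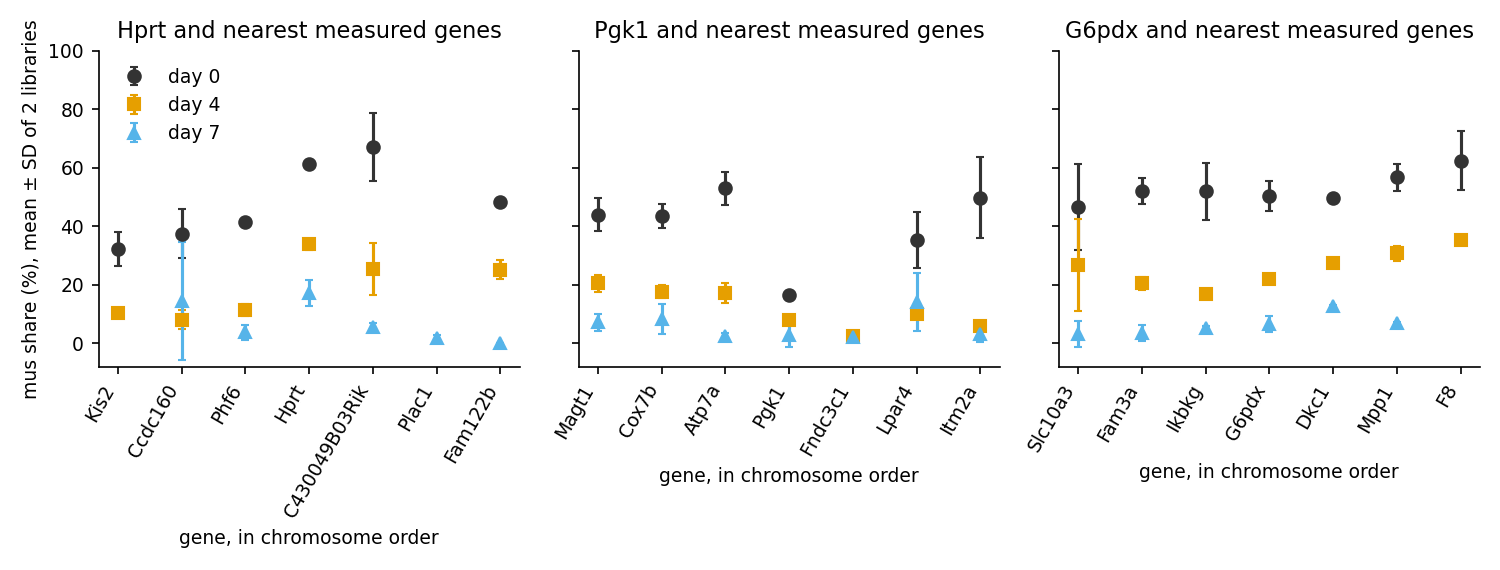
Mus share (percent, mean ± SD of 2 libraries) of each enzyme gene and the 3 nearest measured genes on either side in chromosome order, at day 0 (circles), day 4 (squares) and day 7 (triangles), shown where a day had a mean of at least 10 reads. Pgk1 at day 0 (16.3%) lies below its plotted neighbours, Hprt (61.2%) above Phf6 (41.3%), and G6pdx among its neighbours.

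Around Pgk1, the 3 measured genes before it had day 0 shares nearer to equal. Magt1, a subunit of the glycosylation machinery, had 43.9% ± 5.68 mus, the respiratory chain gene Cox7b 43.5% ± 4.00, and the copper transporter gene Atp7a, 62.2 kb away, 53.0% ± 5.68, and none of these was called against an equal share in edgeR's test. On the other side Fndc3c1 had only 10.5 and 6.5 reads, and Lpar4, a lysophosphatidic acid receptor gene 717 kb away, had 35.3% ± 9.69 and was called lower (adjusted p = 0.013, edgeR). Around Hprt the shares changed side. Phf6, a chromatin-associated protein gene 31.2 kb before it, had 41.3% ± 0.903 mus and was called lower (adjusted p = 1.05e-05, edgeR), and the noncoding C430049B03Rik, 33.4 kb after it, had 67.2% ± 11.6 of a mean of 61 reads and was called higher. At day 7 Phf6 was at 3.71% ± 2.53, C430049B03Rik at 5.50% ± 1.23 and Fam122b at 0 of 28 and 0 of 17.5 reads (up to 10.7% and 17.1% allowed), beside 17.2% ± 4.40 for Hprt. Plac1 was at 1.89% ± 0.739, whereas Ccdc160 and Kis2, with means of 10 and 8.5 reads, were at 14.3% ± 20.2 and 27.8% ± 39.3. Around G6pdx none of the 6 neighbours was called at day 0. Ikbkg, whose locus holds G6pdx, ran close to it, with 52.0% ± 9.75, 16.8% ± 0.528 and 5.03% ± 0.686 mus on the 3 days against 50.2% ± 5.13, 22.1% ± 0.219 and 6.48% ± 2.76. Its expression did not run the same way, with 16 ± 1.88, 27.3 ± 1.06 and 31.2 ± 0.193 TPM.

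The genes most like each enzyme were ranked by the mean absolute difference over the 6 libraries. In mus share G6pdx was nearest to Usp11 (1.63 percentage points), Atrx (2.01) and Rps6ka6 (2.08). Hprt was nearest to Pdzd4 (3.36), the noncoding RNA gene Firre (3.77) and Plp2 (3.92). Pgk1 was nearest to AA414768 (3.29), Stard8 (3.43) and Mid1 (3.55), whose day 0 shares were 16.7% ± 0.767, 14.8% ± 0.339 and 18.4% ± 1.71. In the course of log2(TPM + 1) since day 0, the genes near Hprt included the glycerol kinase gene Gk (0.0829) and the RNA-binding protein gene Rbm3 (0.130). Pgk1 was nearest to Prps2 (0.0865), Lrch2 (0.0872) and Xk (0.0931), and G6pdx to Tmem28 (0.0571), Pdzd11 (0.0959) and Maoa (0.0986). No gene was among the 3 nearest on both measures for the same enzyme.

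A fixed list of other X-linked enzymes of carbohydrate and nucleotide metabolism served as the pathway background. Of its 14 symbols, with Gk and Gyk standing for the same gene, 10 were measured. The list is not complete, and Pfkfb1 (69.8% mus at day 0 and 3.65% at day 7) was measured but not listed. Their mus share was called lower at 10 of 10 by day 4 and at 10 of 10 by day 7 (87.9% and 89.8% of all genes), with median log2 odds changes of -1.49 and -3.84. Of the phosphoribosyl pyrophosphate synthetases, which make the substrate of Hprt, Prps1 went from 47.2% ± 0.126 to 23.3% ± 1.19 and 17.9% ± 8.12 mus, and Prps2 from 44.8% ± 1.82 to 11.6% ± 1.79 and 3.53% ± 0.204. Pdha1, a subunit of pyruvate dehydrogenase, started at 61.3% ± 0.112 mus, close to Hprt, and stood at 8.20% ± 2.25 on day 7. At the other end Ogt, the O-GlcNAc transferase gene, kept 36.1% ± 1.20.

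In expression 1 of these 10 rose and 5 fell by day 7 (30.9% and 54% of all genes), with a median change of -0.33 against -0.37 over all genes. Prps1 fell from 228 ± 13.6 to 48.3 ± 0.416 TPM, Prps2 from 57.3 ± 0.903 to 25.0 ± 0.250, and Gk from 24.1 ± 0.936 to 6.03 ± 0.00408. Pdha1 and the pyruvate dehydrogenase kinase gene Pdk3 also fell, and Phka2, a regulatory subunit of phosphorylase kinase, rose from 26.9 ± 0.823 to 44.8 ± 0.148 TPM. The isocitrate dehydrogenase subunit gene Idh3g, at 247 ± 9.88 and 262 ± 2.23 TPM, the CTP synthase gene Ctps2, Phka1 and Ogt did not pass. By day 4, 6 had risen (Prps2, Pdk3, Phka2, Gk, Ctps2 and Ogt) and 1, Prps1, had fallen (41.4% and 40.6% of all genes), and on the median-gene reference 5 were higher and 4 lower. Prps1 was thus lower at day 4 while Pgk1, G6pdx and Prps2 were higher. Relative to the median gene the day 7 counts were 5 higher and 5 lower.

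**Figure D5:**
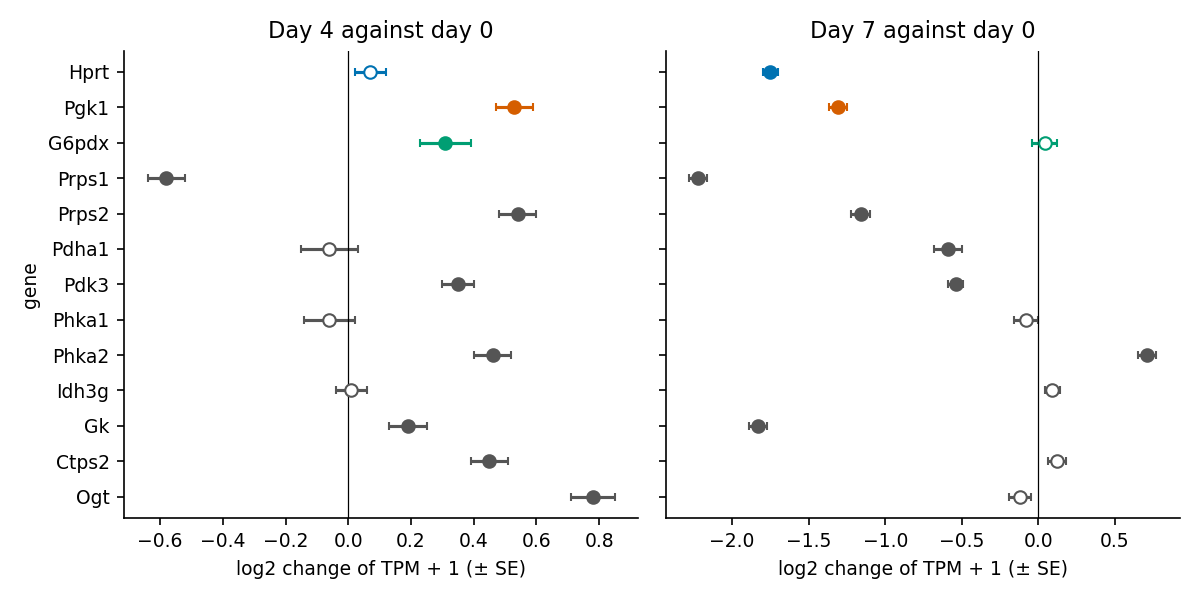
Change of expression against day 0 on the log2(TPM + 1) scale with its standard error. The 3 enzymes are in colour and the 10 measured enzymes of the carbohydrate and nucleotide list in grey, filled where limma called the change. Hprt (-1.75) and Pgk1 (-1.31) lie on the left at day 7 with Prps1, Gk and Prps2, and G6pdx (0.04) lies near 0.

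Among other widely used genes, the day 7 mus share of Hprt (17.2%) was lower than those of 2 ribosomal protein genes and close to that of Uba1. Rps4x had 39.0% ± 0.0951 and Rpl10 23.7% ± 0.198 of a mean of 13.8 reads, and the ubiquitin pathway genes Uba1, Usp9x and Huwe1 had 18.8% ± 1.40, 10.1% ± 0.238 and 8.53% ± 0.530. At day 0 these 5 genes lay between 46.7% and 51.5%. Only Rps4x among them was called against an equal share, toward cas (-0.19 ± 0.07, adjusted p = 0.0271, edgeR). Its day 0 share was 49.8% (Wilson interval 47% to 52.7%) in replicate 1 and 43.7% (40.9% to 46.5%) in replicate 2, so only replicate 2 lay clear of 50%. These differences between genes were not tested. In expression Rps4x, Rpl10, Usp9x, Huwe1 and Uba1 were all called lower at day 7 than at day 0 by limma, as were Hprt, Pgk1 and 54% of all genes. G6pdx was not.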

How the data were processed

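Allele-specific reads and TPM were taken from the deposited tables for 6 libraries, with groups from the sample titles. The authors deposited estimated counts per gene, allele and library in steps of 0.5 (41.4% not whole), the fraction of each allele (equal to the share recomputed from the counts) and TPM. Per the submitters' processing notes, the tools include STAR, HOMER 4.10, Trim Galore 0.4.1, limma and edgeR, and the builds GRCm38 and mm10. What each did, how alleles were assigned and how genes were chosen is not given in the sources used here. Members and lists were chosen with earlier results of these data known.

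Genes needed a mean of 10 allele-specific reads per library and a mean of 1 TPM, which all 372 met. Counts were rounded, and both alleles of the 6 libraries entered edgeR's quasi-likelihood model (edgeR 4.0.16, R 4.3.3) with library terms and an allele term per day, without scaling between alleles. Its prior degrees of freedom came out infinite, which gives genes of the same read level 1 shared spread. TPM and allele-split TPM were tested with limma 3.58.1 (trend) on log2(value + 1), the latter over the 357 genes with reads in every library. P-values were adjusted by Benjamini-Hochberg over all genes and called at 0.05. Alternatives used DESeq2 1.42.0, other minimums, pseudocounts and references, a replicate block, and each library left out. The median-gene reference was the median value of each library, for shares the log2 odds with 0.5 added to both counts. It differs from the median of the fitted changes. Both kinds of test were tried on simulated data, with counting error only for the shares and independent libraries for TPM. The simulation lacks the relation between the TPM libraries, so it cannot show how that relation affects the p-values. Near copies were found with blastn 2.17.0 in the GENCODE M21 transcripts, alignments under 100 bases left out. Intervals are Wilson intervals on rounded reads (scipy 1.17.1), and a count of 0 allows 3 counts. Replicate pairs differed by more than counting noise in reads per gene (chi-square per degree of freedom 3.96, 1.79 and 2.69 at day 0, 4 and 7). In mus share they differed by little more than counting noise (1.079, 1.245 and 1.112). Each library counted as 1 sample, so the spread behind the share tests is close to counting error. Named genes were the members, the fixed lists, 3 neighbours on either side, 3 most alike genes per measure, Xist, and 5 comparison genes; some of these are given only within counts, and 1 is not reported here.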

Additional observations from a re-analysis of the deposited data

How the results depend on the processing

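Over the 3 enzymes, 326 of 378 values under the alternatives kept their direction and side of the threshold, 25 turned, 24 lost and 3 gained a call. Most turned when set relative to the median gene. On that reference the log2 odds changes of Hprt, Pgk1 and G6pdx were 0.27, 0.70 and 0.10 at day 4, 0.94, 1.76 and 0.13 at day 7, and 0.66, 1.06 and 0.03 between these days, with 149, 104 and 63 genes called. At day 0 G6pdx was at 0.06. The TPM changes were -0.13 (Hprt) and 0.11 (G6pdx) at day 4, and for G6pdx 0.36 at day 7 and 0.24 from day 4 to 7. Cas changes at day 4 were 0.11, -0.06 and 0.23, mus changes 0.30, 0.64 and 0.23 at day 4 (93 genes called) and -0.43, 0.26 and 0.21 at day 7 (198 genes). A pseudocount of 0.1 gave G6pdx -0.86 from mus at day 4 (not called).

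Limma on the empirical logit called 10 genes at day 0 and DESeq2 40, against 108. There limma gave 0.65 for Hprt, -2.33 for Pgk1 and 0.01 for G6pdx, none called. For Pgk1 at day 4, DESeq2 gave -1.15 and limma -1.16, neither called. On summed reads Hprt at day 4 was -0.26 in edgeR and -0.34 in DESeq2 (not called), and G6pdx was 0.38 in edgeR at day 7 (called), and 0.03 and 0.12 from day 4 to 7. DESeq2 there gave 0.72 (Pgk1) and 0.28 (G6pdx) at day 4 and -0.75 (Pgk1) at day 7, none called. The causes were not tested.

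Leaving out 1 library gave 45 to 111 genes called at day 0 and, for G6pdx at day 0, -0.20 to 0.21. Pgk1 ranged from -1.30 to -1.03 at day 4 and from -5.87 to -1.66 at day 7. TPM changes ranged from 0.06 to 0.08 for Hprt at day 4, and for G6pdx from 0.20 to 0.43 at day 4, -0.07 to 0.16 at day 7 and -0.32 to -0.21 from day 4 to 7. The mus changes at day 4 ranged from -0.84 to -0.71 for Hprt and -0.89 to -0.80 for G6pdx. With the replicate block 107, 322, 330 and 244 genes were called for mus share at day 0, day 4, day 7 and day 7 against day 4, and no call of the 3 enzymes changed. For log2 odds, deviations of same-numbered libraries correlated little between days, from -0.128 to 0.061. For log2(TPM + 1) they correlated at -0.013 (day 0 and day 4), 0.127 (day 0 and day 7) and -0.895 (day 4 and day 7). The TPM libraries of day 4 and day 7 were thus not independent. Counting the day 7 pair as 1 library, an alternative chosen after seeing the data, changed no call of the 3. Depth limits Pgk1 at day 7 most, with 51 and 19.5 reads.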

Other observations

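Of 27 other X-linked metabolic enzymes listed, 19 were measured. Their mus share was called lower at 18 of 19 by day 4 and by day 7 (87.9% and 89.8% of all genes), the exception being Alas2, the erythroid enzyme that starts heme synthesis, with 0 reads at day 4. Their median gene stood at 48.1% ± 2.07, 21.1% ± 0.133 and 5.20% ± 1.21 mus on the 3 days. Alg13, a glycosylation gene, still had 48.5% ± 1.67 mus at day 4, beside 54.8% ± 0.855 at day 0, and 18.5% ± 2.53 at day 7. In expression 3 of 19 rose by day 7 (Nsdhl, Hsd17b10 and Alas2) and 13 fell, against 30.9% and 54% of all genes. Nsdhl, a sterol synthesis enzyme gene, rose from 58.6 ± 2.63 to 152 ± 0.427 TPM, and Sms, which makes spermine, fell from 81.5 ± 13.1 to 9.10 ± 0.0578 TPM. Set against the median gene, 6 of them were higher and 8 lower.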
